A study of Rattus norvegicus with 16 samples.

Results

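The comparison described here set the kidneys of rat pups that had lost the left kidney on day 14 of life against those of pups that had a sham operation on the same day. It took in 8 of the 16 libraries of the series, 4 after left-sided uninephrectomy (UNX) and 4 after sham surgery. All were made from total kidney RNA of male Wistar pups, taken 3 days after surgery, and no group carried a transgene or a drug treatment in the labels. The other 8 libraries came from pups that had UNX or a sham operation on day 1 of life, with kidneys also taken 3 days after surgery. Day 1 and day 14 name the day of surgery throughout, and the day 14 kidneys were taken on day 17 of life. The labels do not say which kidney of a sham pup was taken. They list the libraries as separate samples without saying that each came from its own pup, and p-values here rest on the spread between these libraries, which may be technical.

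The genes described were all those whose mean over the 16 libraries reached 3, which left 14845 of the 26689 in the table (55.6%). Values were regularised-log (rlog) levels, a log2 scale in which library depth is scaled out and the differences of weakly expressed genes are pulled towards the gene's mean. Differences therefore understate the changes of weakly expressed genes. At the limit of the choice, the last gene inside had a mean of 3.00009 and the first outside 2.99887. Their differences between UNX and sham were −0.09 and 0.02 on the log2 scale.

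When a kidney is removed, the kidney that stays grows and raises its filtration and transport, a response called compensatory growth. In the adult this growth is mostly enlargement of existing tubule cells, while in the young kidney cell division takes a larger part. In the rat, new nephrons are still being formed at birth and nephron formation ends in early postnatal life, so removal at the later age falls on a kidney with its nephrons laid down but its tubules still maturing. The study asked what early nephron loss does to gene expression in such kidneys.

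Genes appear under Ensembl identifiers. The files do not pair these with names, and the reference table matched 0 of the 26689. The pathway, nephron segment and cell type lists drawn up for this work, 45 in all, could therefore not be read, and the kidney label was not checked against marker genes. Of the genes that passed the test, the 2 with the smallest p among those that rose and the 2 among those that fell are given by identifier.

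At 3 days after UNX on day 14, 8 of 14845 genes (0.0539%) differed from sham (limma, Benjamini-Hochberg adjusted p under 0.05). After UNX, 5 genes rose (0.0337%) and 3 fell (0.0202%). The log2 differences ran from 0.26 to 0.55 among the genes that rose and from −0.42 to −0.28 among those that fell. All 8 were well expressed, with mean rlog values of 8.95 to 12.94, and the least abundant of them stood above 57.4% of the tested genes. In each of the 8 the 4 UNX values lay apart from the 4 sham values, which held for 6.97% of all tested genes. The 8 were selected on these same values, so this separation adds nothing to the test. For the same reason the sizes of their day 14 differences, and the intervals given with them, lean away from 0. The count became 0 when the filter on low values was dropped and when only the 8 day 14 libraries were fitted (limma, with p under 0.05 before adjustment in 3362 and 1822 genes).

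ENSRNOG00000018215 had the smallest p and was the most abundant of the 8. After UNX it stood at 13.61, 13.54, 13.49 and 13.34 in libraries 1 to 4, and after sham surgery at 13.09, 13.18, 12.94 and 13.02. The lowest UNX value, in library 4, lay 0.16 above the highest sham value, in library 2. The means were 13.49 ± 0.11 after UNX and 13.06 ± 0.10 after sham surgery (SD, n = 4 each). The log2 difference was 0.43 (SE 0.062), a level 35.2% higher with a 95% interval from 23.5% to 47.9% (limma adjusted p = 0.0174).

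ENSRNOG00000000590 showed the largest rise among the 8. Its UNX values were 10.93, 10.89, 10.91 and 10.55 in libraries 1 to 4, and its sham values 10.38, 10.20, 10.36 and 10.15. UNX libraries 1 to 3 thus lay within 0.04 of each other, while library 4 stood between them and the sham libraries, 0.17 above the highest sham value. The means were 10.82 ± 0.18 and 10.27 ± 0.12 (SD, n = 4 each). The log2 difference was 0.55 (SE 0.082), a level 46.2% higher with a 95% interval from 29.7% to 64.7% (limma adjusted p = 0.0176).

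ENSRNOG00000006060 showed the largest fall among the 8. In UNX libraries 1 to 4 it stood at 8.77, 8.98, 8.91 and 9.04, and in sham libraries 1 to 4 at 9.28, 9.22, 9.51 and 9.36. The highest UNX value, again in library 4, lay 0.18 below the lowest sham value, in library 2. The means were 8.92 ± 0.12 and 9.34 ± 0.13 (SD, n = 4 each). The level fell by 25.2%, a log2 difference of −0.42 (SE 0.067; limma adjusted p = 0.0277).

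ENSRNOG00000023548, the other fall given by identifier, had the narrowest gap between the groups. Its UNX values were 10.90, 10.96, 10.93 and 11.21, and its sham values 11.35, 11.23, 11.47 and 11.33, in libraries 1 to 4. UNX library 4 lay only 0.02 below sham library 2. The sham mean was 11.34 ± 0.10, and the SD of the UNX libraries was 0.14 (n = 4 each). The level fell by 21.2%, a log2 difference of −0.34 (SE 0.061; limma adjusted p = 0.0450).

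**Figure D1:**
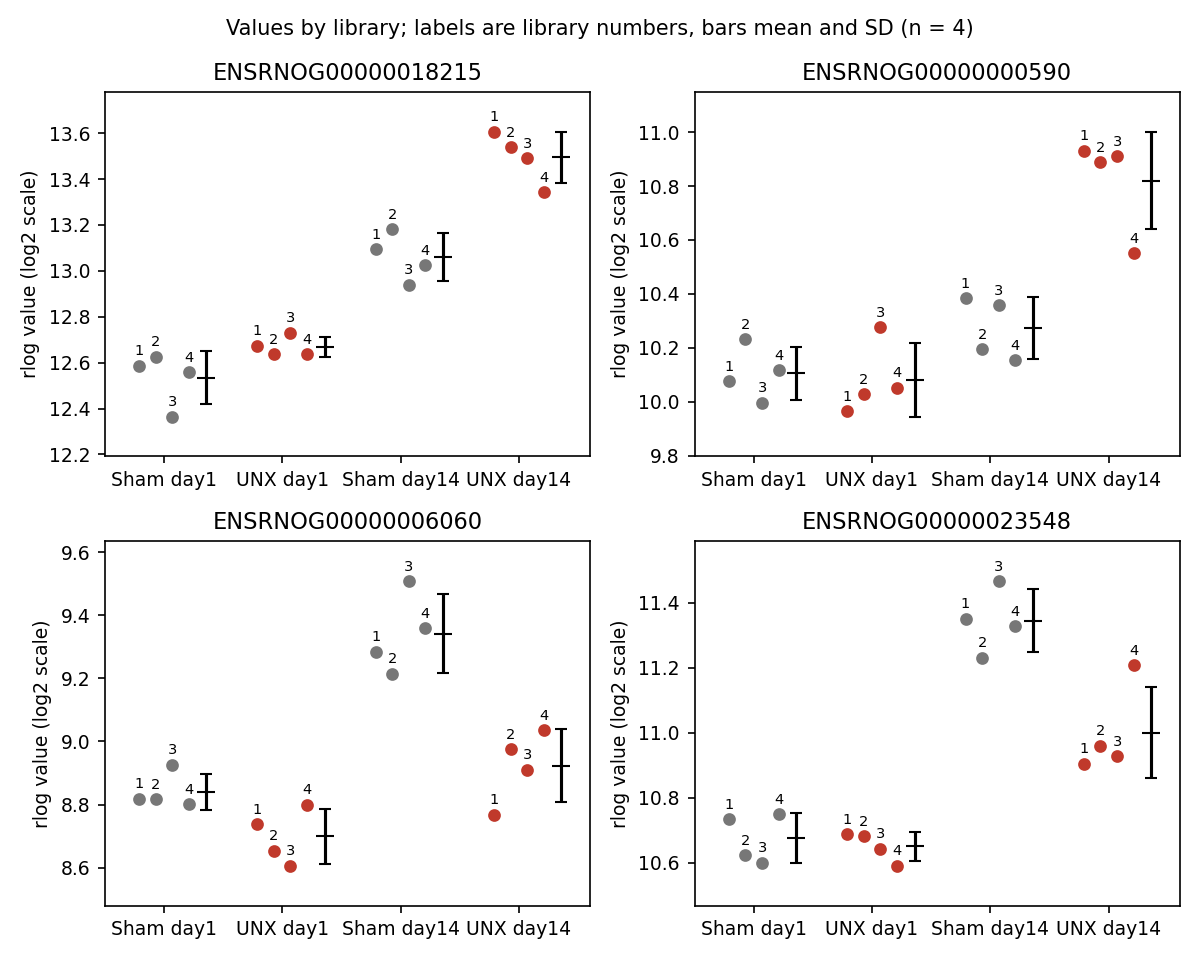
Each panel shows 1 gene, with the rlog value (log2 scale) of every library as a point labelled by its library number, and the mean and SD of each group of 4 as a bar. In all 4 genes the UNX day14 libraries lie apart from the Sham day14 libraries, and UNX library 4 is the UNX library nearest to sham.

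The other 4 genes that passed changed by less. The 3 further genes that rose had log2 differences of 0.30, 0.29 and 0.26, with levels 23.0%, 22.4% and 19.4% higher. The remaining gene that fell had a difference of −0.28, and its level fell by 17.5%. Gaps between the nearest UNX and sham values in these 4 genes were 0.11, 0.10, 0.07 and 0.13 in the same order.

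UNX library 4 was the UNX library closest to the sham values in 8 of the 8 genes, in those that rose and those that fell alike. The sham library closest to the UNX values was library 2 in 6 genes and library 1 in 2. UNX library 4 also stood out in the wider set of genes with separate UNX and sham values. In 583 genes (3.93%) all UNX values lay above all sham values, and UNX library 4 was nearest to sham in 47.7% of these, against 15.4%, 20.1% and 16.8% for libraries 1, 2 and 3. In 451 genes (3.04%) all UNX values lay below, and library 4 was nearest in 49.2%, against 17.3%, 17.1% and 16.4%.

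Single libraries decided how many genes passed. Without UNX library 4, 90 genes passed in limma, 54 higher and 36 lower, and the 8 were all among them. That library was the UNX library nearest to sham in each of the 8, so leaving it out could only widen their differences. Without sham library 2, 22 passed, again with all 8. Without sham library 1, 6 passed, of which 4 were among the 8. Without UNX library 3 or sham library 4, 2 passed in each case, of which 1 was among the 8. With UNX library 1, UNX library 2 or sham library 3 left out, 0 passed in limma, and p before adjustment was under 0.05 in 1652, 1826 and 1850 genes.

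**Figure D2:**
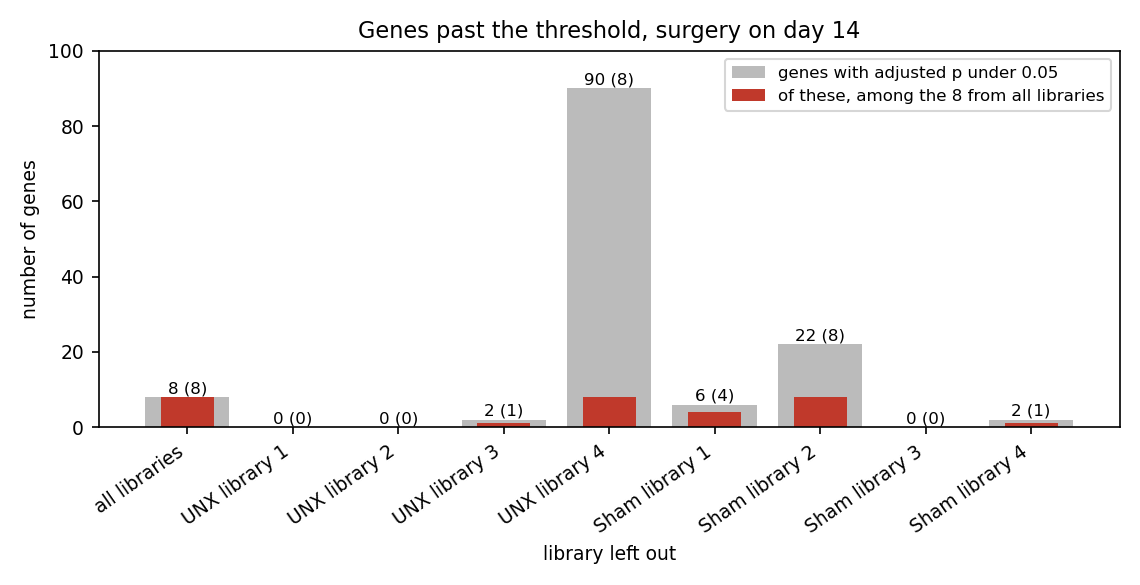
Bars give the number of genes with a limma adjusted p under 0.05 when each day 14 library was left out, with the number that were among the 8 genes from all libraries in parentheses. The count is 90 without UNX library 4 and 0 without sham library 3 or either of UNX libraries 1 and 2.

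UNX libraries 1 and 3 also stood apart outside the tested genes. Among 5051 near-silent genes, those with a mean rlog value under 0, the top value of the 16 was found in UNX library 3 for 47.9% and in UNX library 1 for 20.2%, while no sham library exceeded 2.99%. With libraries 1 and 3 left out together, a choice made after the data were seen, 1 gene passed and it was not among the 8. This fit kept 2 UNX libraries. In it the log2 differences of ENSRNOG00000018215, ENSRNOG00000000590, ENSRNOG00000006060 and ENSRNOG00000023548 were 0.38, 0.45, −0.34 and −0.26 (limma adjusted p = 0.349, 0.669, 0.738 and 0.738). The part of the near-silent signal in the results was not tested.

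Below the threshold, a further 50 genes had an adjusted p under 0.10, which brought the total at that limit to 58 (0.391%). Of the 50, 37 were higher after UNX, by 0.17 to 0.44 on the log2 scale, and 13 were lower, with differences from −0.46 to −0.17. In 45 of them the UNX and sham values were separate, against 6.97% of all tested genes, but the 50 were chosen by their p on these same values. Their median rlog level was 9.97, above the 8.53 of all tested genes. Before adjustment, p was under 0.05 in 2132 genes (14.4%), with UNX higher in 1166 (7.85%) and lower in 966 (6.51%). Of these, 8 passed after adjustment.

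Most genes differed little between UNX and sham. The median size of the difference was 0.059. A difference of at least 0.1 was seen in 4031 genes (27.2%), 2117 of them higher and 1914 lower. It reached 0.2 in 774 genes (5.21%) and 0.3 in 173 (1.17%). The UNX and sham values overlapped in most of these, being separate in 231 of the 774 and in 51 of the 173. Over all 14845 tested genes they were separate in 1034 (6.97%), but the 774 and the 173 were picked by the size of this same difference.

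**Figure D3:**
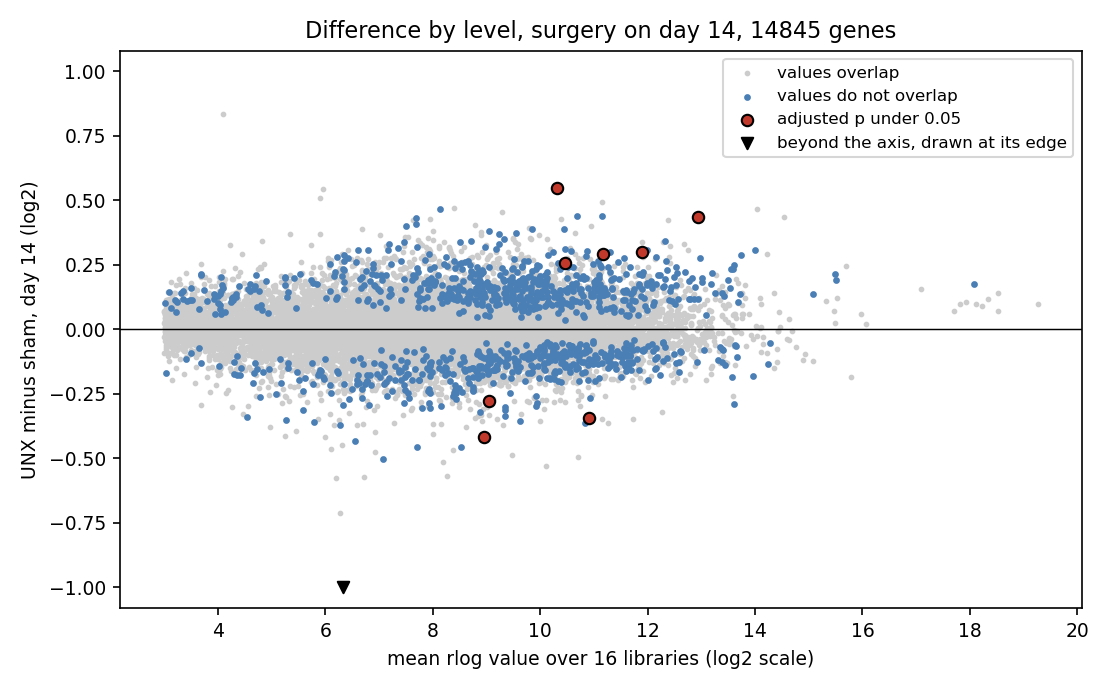
Each point is 1 of 14845 genes, placed by its mean rlog value over 16 libraries and by the UNX minus sham difference on day 14 (both log2 scale). The 8 genes with adjusted p under 0.05 lie at levels of 8.95 to 12.94, and 1 gene with a difference of −1.91 is drawn at the edge of the axis.

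The largest differences were mostly not the ones that passed. Of 12 genes that differed by at least 0.5, 4 higher and 8 lower, ENSRNOG00000000590 alone passed. In 11 of the 12 the values of at least 1 group ranged over more than the difference between the groups, and in 10 the groups overlapped. The largest, ENSRNOG00000051257, was singled out after its values were seen. It stood at 4.88 to 5.01 in the UNX libraries, at 5.13, 5.14 and 4.77 in sham libraries 1 to 3 and at 12.42 in sham library 4. Its difference of −1.91 came from that 1 library, and its 95% interval ran from −5.20 to 1.38 (limma adjusted p = 0.630). In 5 of the 12 genes the top value of the 8 was that of sham library 3.

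Separate values were more frequent among abundant genes. In the 1537 genes with a mean rlog value of 11 or more, the groups did not overlap in 15.2%, with UNX higher in 8.91% and lower in 6.25%. The share was 8.31% for levels of 9 to 11, 5.45% for 7 to 9, 4.01% for 5 to 7 and 4.13% for 3 to 5. Between the day 1 groups the share was also highest at 11 or more, at 6.38%, against 3.38% to 5.03% in the lower bands. The median size of the day 14 difference varied little with level, from 0.050 in the lowest band to 0.067 for levels of 5 to 7 and 0.065 in the highest. The rlog scale understates the changes of weakly expressed genes, so these sizes do not show a like response at all levels. In every band the median size was below the median half-width of the 95% interval. The precision varied more, with a median half-width of the 95% interval of 0.17 for levels of 5 to 7 and 0.10 for 11 or more. Of the 8 genes that passed, 3 lay at 11 or more, 4 at 9 to 11, 1 at 7 to 9 and 0 below that (limma). Before adjustment, p was under 0.05 in 8.25% of the genes at levels of 3 to 5 and in 9.30% of those at 5 to 7.

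In the lowest band, at levels of 3 to 5, separate values were higher after UNX in 2.98% of genes and lower in 1.15%. UNX libraries 3 and 1, the libraries that stood out in the near-silent genes, had the highest medians there, 0.042 and 0.018 above the sham mean. UNX libraries 2 and 4 had medians of −0.018 and −0.011, and the sham libraries from −0.012 to 0.0040. The part of those libraries in the excess of higher genes was not tested.

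**Figure D4:**
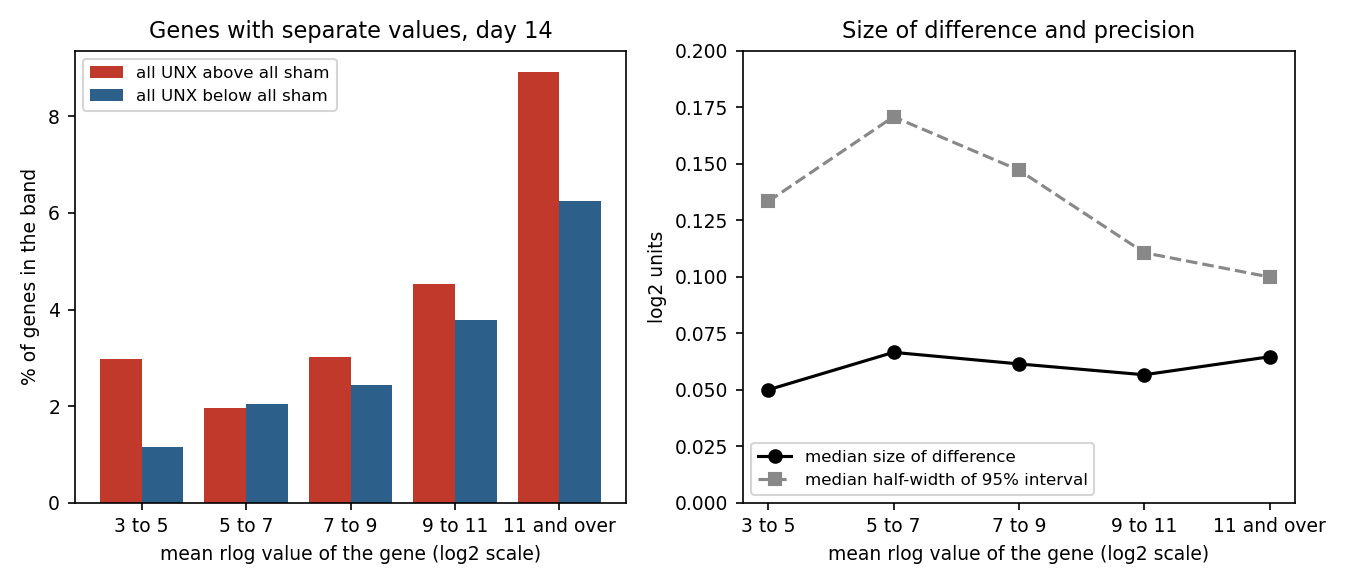
The left panel gives, for 5 bands of mean rlog value, the percentage of genes with all UNX day14 values above (red) or below (blue) all Sham day14 values. The right panel gives, in log2 units, the median size of the difference and how wide its 95% interval is to either side (median). The shares reach 8.91% and 6.25% in the highest band, while the median size of the difference stays between 0.050 and 0.067.

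The 8 genes were then followed in the pups operated on day 1. The libraries of these pups had entered the choice through the filter and the shared estimate of the spread. They may also have entered through the rlog step, if it took all 16 libraries together. None of the 8 genes passed on day 1, with limma adjusted p of 0.687 to 0.996 and differences of at most 0.14 in size. The direction was the same as on day 14 in 5 of the 8. ENSRNOG00000018215 stood at 12.67 ± 0.044 after UNX and 12.53 ± 0.12 after sham surgery on day 1, a difference of 0.14 (95% interval 0.0057 to 0.27). ENSRNOG00000006060 stood at 8.70 ± 0.086 and 8.84 ± 0.058, a difference of −0.14 (95% interval −0.28 to −0.00052; SD, n = 4 each). In these 2 genes the day 1 groups were separate, as in 4.51% of all tested genes. The intervals of the other 6 held 0.

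The 4 genes given by identifier were also compared by their means over the 4 groups. ENSRNOG00000000590 had day 1 means of 10.08 after UNX and 10.11 after sham surgery, close to the 10.27 of sham kidneys on day 14, and the UNX kidneys of day 14 at 10.82 stood above the other 3 groups. ENSRNOG00000023548 had day 1 means of 10.65 and 10.68, and its UNX values of 10.90 to 11.21 on day 14 lay between these and the sham mean of 11.34. The means of ENSRNOG00000006060 ran from 8.70 and 8.84 on day 1 through 8.92 after UNX on day 14 to 9.34 after sham surgery on day 14. In ENSRNOG00000018215 the sham and UNX means were 12.53 and 12.67 on day 1 and 13.06 and 13.49 on day 14. These orders were not tested, and a batch that followed the surgery day cannot be told apart from age.

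**Figure D5:**
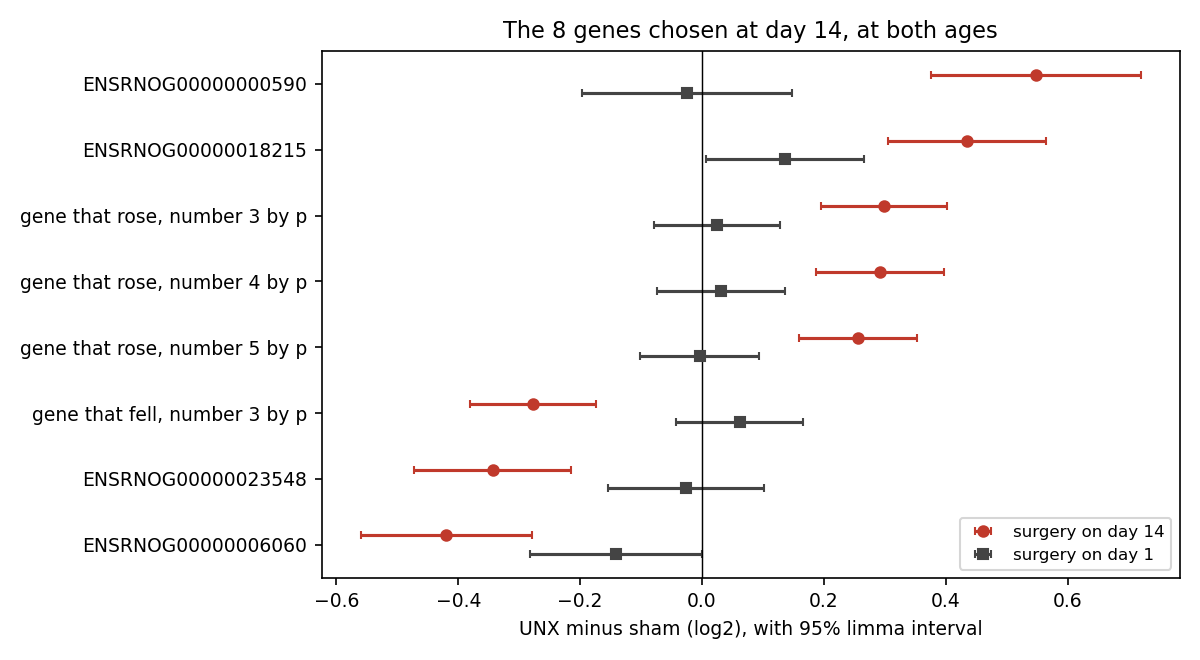
Points give the UNX minus sham difference (log2) of the 8 genes after surgery on day 14 (red) and on day 1 (grey), with 95% limma intervals. The day 14 differences run from −0.42 to 0.55, and 6 of the 8 day 1 intervals hold 0. The 8 genes were selected on the day 14 values, so the day 14 intervals lean away from 0.

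Whether the effect of UNX itself differed between the ages was tested directly. None passed in limma (0 of 14845 genes, 0%). The smallest adjusted p was 0.058, and before adjustment p was under 0.05 in 1586 genes (10.7%). The 8 genes were chosen by their difference on day 14, which enters this comparison, so their intervals here lean away from 0. For ENSRNOG00000000590 the effect on day 14 exceeded that on day 1 by 0.57 (95% interval 0.33 to 0.82; limma adjusted p = 0.134). For ENSRNOG00000018215 the excess was 0.30 (95% interval 0.12 to 0.48; limma adjusted p = 0.268). The effects on ENSRNOG00000006060 and ENSRNOG00000023548 differed by −0.28 and −0.32 (limma adjusted p = 0.358 and 0.246). Over the 8 genes the adjusted p ran from 0.134 to 0.358, so a response particular to day 14 was not shown for any of them. With single libraries left out, 5 genes passed without library 3 of the Sham day1 group, 2 without library 3 of the UNX day14 group and 1 without library 4 of the UNX day14 group.

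The wider set of genes with separate values on day 14 showed no common direction on day 1. Of the 583 higher on day 14, 291 (49.9%) were also higher on day 1, and of the 451 lower, 227 (50.3%) were also lower. The shares of all tested genes that were higher or lower on day 1 are not given here. Values separate in the same direction at both ages were found in 13 of the 583 (2.23%) and in 9 of the 451 (2.00%). Over all tested genes 2.12% were separate upwards on day 1 and 2.39% downwards. The 13 were 4.14% of the 314 genes separate upwards on day 1, and the 9 were 2.54% of the 355 separate downwards. Over all tested genes 3.93% were separate upwards on day 14 and 3.04% downwards. The ages share no library.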

How the data were processed

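Total kidney RNA was sequenced. Per the labels' protocols, DNase treatment was followed by library preparation with the Ovation Universal kit and depletion with custom rat oligonucleotides. The submitters' processing notes list DESeq2, featureCounts, Subread 1.5.1, STAR 2.4.0 and BWA 0.7.14 with no roles. Not given in the sources used here were the genome build, annotation release, strand setting and blinding of the rlog step. Reads of near-identical or overlapping genes may therefore be mixed. The table deposited by the authors held rlog levels on a log2 scale. Depth is unknown, since read totals were not used here, and no counting interval was computed. Columns headed CO were taken as sham, by day and number. No pair of libraries was identical.

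Groups were compared with limma 3.58.1 (R 4.3.3), with 1 mean per group over 16 libraries (12 residual and 6.88 prior degrees of freedom), a mean-variance trend, two-sided p-values and adjustment by Benjamini-Hochberg over 14845 genes. The fit was also run on simulated data with independent noise per gene and library. That noise left out deviations that a library shares across genes, so no support is drawn from it here. Plots used Python 3.11.15 and matplotlib 3.10.9. The genes, lists and tests were chosen with earlier results of these data known. The naming rule took every gene that passed, the 10 smallest p in each direction with a symbol, up to 4 genes per list and fixed kidney genes, or, without symbols, at most 2 identifiers per direction. As 0 identifiers matched a symbol, 0 of 45 lists were tested and the last provision applied; the 4 were taken by smallest p. Alternatives changed the filter, scaling, variance model, weights, libraries in the fit, replicate block and threshold.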

Additional observations from a re-analysis of the deposited data

Results flagged for a closer look

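The 8 genes gave 16 sets of 4 values, each screened with Dixon's test, which about 1 set in 20 passes by chance. One library stood far from the rest of its group in 1 of the 16. In ENSRNOG00000000590 the value of 10.551 in UNX day 14 library 4 lay under those of libraries 1 to 3 of its group, which ran from 10.8891 to 10.9301.

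Signal outside the tested genes appeared in a pair of UNX day 14 libraries. For each of the 5051 near-silent genes the library with the top value was noted. It was library 3 of the UNX day14 group for 47.8519% of the genes and library 1 of that group for 20.1544%. Libraries 2 and 4 of the group had the top value for 2.00% and 2.45%, and each sham library for 1.70% to 2.99%.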

How the results depend on the processing

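The count of 8 genes for UNX against sham on day 14 was 8 with a mean value of at least 5 and with median centring, and 12 with the robust variance model, all 8 included. It was 3 without the variance trend, 2 with array weights and 58 at an adjusted p under 0.10. It was 0 without the filter on low values and 0 with only the compared groups in the fit (limma, with 3362 and 1822 genes at an unadjusted p under 0.05). It ranged from 0 to 90 when single libraries were left out and was 1 without UNX libraries 1 and 3. The fit without the filter tested 22715 genes and the fit of the compared groups had 8 libraries; otherwise the cause was not tested. Without the filter 70.1% of genes at an unadjusted p under 0.05 were higher after UNX, against 54.7% with it.

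With the library number as a replicate block the count was 2, both among the 8. Deviations of same-numbered UNX and sham libraries correlated at −0.228, −0.0916, 0.0378 and −0.159 across genes, and those of differently numbered libraries at −0.232 to 0.413. With 4 libraries per group these values cannot decide whether same-numbered libraries share more than a number. ENSRNOG00000018215, ENSRNOG00000000590, ENSRNOG00000006060 and ENSRNOG00000023548 were past the threshold in 11, 9, 7 and 5 of 17 alternatives, and their highest limma adjusted p was 0.349, 0.669, 0.738 and 0.738. Their direction was the same in all 17. Their UNX and sham values do not overlap, so leaving libraries out could not have reversed it. The count for the difference between the ages was 0 in the other alternatives and 0 to 5 when 1 library at a time was left out. The alternatives planned for gene lists were not run, since no identifier matched a symbol. Unknown depth limits what can be said of weakly expressed genes.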

Other observations

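The day 14 libraries also differed in how much they varied. The median SD of a gene was 0.078 over the 4 UNX libraries and 0.088 over the 4 sham libraries, and 58.5% of the 14845 genes varied less after UNX. Without sham library 1, 2, 3 or 4 that share was 54.9%, 56.8%, 52.7% and 49.5%, and without 1 UNX library it was 59.5% to 62.8%. Each of these shares sets an SD of 3 values against an SD of 4, which is not a like comparison. After surgery on day 1, with 4 libraries in each group, 66.4% of the genes varied less after UNX.

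In a principal component analysis of the 8 day 14 libraries alone, the first component held 27.1% of the variance and was led by sham library 4, at 14.4, and sham library 3, at −9.10. The second held 24.1% and set the UNX libraries, at 1.41 to 9.29, above the sham libraries, at −9.66 to −0.76. UNX library 4 and sham library 2, at 1.41 and −0.76, lay nearest to each other on it.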
